A study of Mus musculus with 9 samples.

Results

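The Hox cluster genes are the homeobox genes of the HoxA, HoxB, HoxC and HoxD clusters, taken here as every listed symbol that reads Hoxa, Hoxb, Hoxc or Hoxd followed by a number from 1 to 13 and nothing more. This rule found 39 of the 36410 genes listed, with 11 in HoxA, 10 in HoxB, 9 in HoxC and 9 in HoxD. The number in a Hox symbol is its paralog group, which gives its place in the cluster, so that genes of the same number in different clusters are the closest relatives. Hox proteins are DNA-binding transcription factors that give cells of the embryo their position along the head-to-tail axis. Genes of low number lie at the 3′ end of a cluster and mark the hindbrain and neck, and genes of high number lie at the 5′ end and mark the lumbar, sacral and tail regions and the ends of the limbs. Hox genes are active in the hindbrain, the spinal cord and trunk mesoderm, and are largely silent in the embryonic forebrain, from which the striatum forms.

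Poly(A) RNA of 9 libraries from 3 striatal neuronal cell lines of mouse was measured, with 3 libraries per line. All 3 lines were immortalized from mouse embryos of the strain C57/BL6 and carry knock-in alleles of exon 1 of huntingtin (Htt), the gene mutated in Huntington disease (HD). The control line (STHdhQ7/Q7) has 7 glutamine codons on both alleles, the HD-homo line (STHdhQ111/Q111) has 111 on both, and the HD-het line (STHdhQ7/Q111) has an allele of 7 and an allele of 111. With 1 line for each genotype, an effect of genotype cannot be told apart from a difference between lines. The labels do not say whether the 3 libraries of a line came from separate cultures, so that p-values measure the spread between libraries. No treatment or embryo age is given in the labels. In bulk RNA of a line, fewer cells that express a gene and less RNA per cell cannot be told apart.

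Libraries held between 29507665 and 41197931 counts on genes. Levels are given as normalized counts per megaread (CPM), which are counts divided by the library total after TMM scaling. Levels of different Hox genes are ranked as RPKM, the CPM per kilobase of exon. Sums of CPM, their shares by cluster and numbers of reads are not corrected for gene length. A library with 3 counts or fewer of a gene was taken as being at the floor, which corresponds to between 0.0710 and 0.101 CPM and covers counting error only. A gene was called detected in a line when all 3 libraries had more than 3 counts. Of the labelled cell type, the striatal neuron markers were low or unread. Their sum over 11 listed genes was between 3.75 and 5.00 CPM in control, 5.84 and 7.22 in HD-het and 4.74 and 5.82 in HD-homo cells, Drd1 had no read in any library, Drd2 had at most 1 read per library, and Gad1 had at most 3, while Pde10a had between 42 and 189 counts per library and Penk between 8 and 116.

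Most Hox reads in all 3 lines came from the HoxB cluster, and the HD-het line had far fewer Hox reads than the other lines. The 39 genes together summed to 144, 136 and 159 CPM in the control libraries, 9.22, 9.39 and 13.8 CPM in the HD-het libraries and 200, 223 and 178 CPM in the HD-homo libraries. The 3 lines did not overlap, and the mean of HD-het cells was 13.5-fold below that of control cells, while the mean of HD-homo cells was 1.37-fold above it. HoxB held 92.5 ± 0.0714% of the summed CPM in control, 85.8 ± 3.98% in HD-het and 87.4 ± 2.45% in HD-homo cells (SD, n = 3).

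The means of the lines had the same order in each cluster, but the clusters differed in how far apart the lines were. HoxA summed to 5.46 ± 0.724 CPM in control, 0.547 ± 0.268 in HD-het and 17.4 ± 2.05 in HD-homo cells (SD, n = 3), without overlap between lines. HoxB summed to 135 ± 10.7, 9.29 ± 2.47 and 175 ± 22.4 CPM in the same order, also without overlap. The mean of HD-het cells was 9.98-fold lower than control for HoxA and 14.6-fold lower for HoxB, and the mean of HD-homo cells was 3.18-fold and 1.3-fold higher. In HoxC the sum was 4.90 ± 0.435 CPM in control, 0.356 ± 0.135 in HD-het and 6.5 ± 1.88 in HD-homo cells, with overlap between HD-homo and control libraries. HoxD stayed near the floor per gene, with sums of 0.613 ± 0.141, 0.602 ± 0.247 and 1.13 ± 0.227 CPM. Control and HD-het libraries overlapped for HoxD, and all HD-homo libraries were above both.

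**Figure D1:**
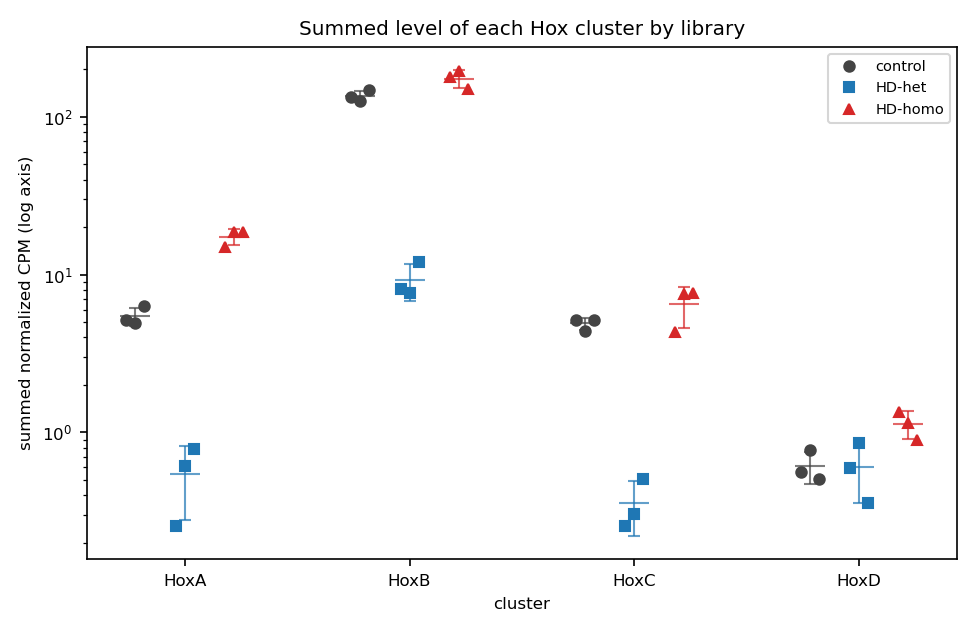
Summed normalized CPM of all listed genes of each Hox cluster, on a log axis, in the 9 libraries. Points are libraries, and horizontal bars with caps are the mean and SD of the 3 libraries of a line. HoxB lies between 126 and 195 CPM in control and HD-homo libraries and between 7.62 and 12.1 CPM in HD-het libraries.

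The lines differed in which Hox genes were detected. Control cells had 25 of 39 genes detected, HD-het cells 11 and HD-homo cells 23. With more than 10 counts asked of every library the numbers were 16, 8 and 21, so that control cells no longer had the most. Another 11 genes in control, 25 in HD-het and 11 in HD-homo cells were at or under the floor in all 3 libraries, and 3, 9 and 4 of these had no read at all. The remaining genes had some libraries on each side of the floor.

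The 9 genes detected in all lines were Hoxb2, Hoxb3, Hoxb4, Hoxb5, Hoxb6, Hoxb7, Hoxb8, Hoxb9 and Hoxc6. Another 10 were detected in control and HD-homo but not HD-het cells, namely Hoxa3, Hoxa4, Hoxa5, Hoxa6, Hoxa7, Hoxa10, Hoxc4, Hoxc9, Hoxc13 and Hoxd9. Hoxa9, Hoxa11, Hoxb13, Hoxc5, Hoxc8 and Hoxc10 were detected in control cells alone, Hoxa2 and Hoxd3 in HD-homo cells alone, and Hoxd8 in both HD lines but not in control cells. No gene was detected in control and HD-het cells without being detected in HD-homo cells. The 10 genes detected in no line were Hoxa13, Hoxb1, Hoxc11, Hoxc12, Hoxd1, Hoxd4, Hoxd10, Hoxd11, Hoxd12 and Hoxd13.

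Detection also differed by position in the clusters. Of the 16 genes of paralog groups 9 to 13, control cells had 9 detected, HD-homo cells 5 and HD-het cells 1, which was Hoxb9. The 11 genes of groups 5 to 8 gave 10 detected in control, 9 in HD-homo and 6 in HD-het cells. Of the 12 genes of groups 1 to 4, HD-homo cells had 9 detected, more than the 6 of control and the 4 of HD-het cells. With more than 10 counts asked of every library, groups 9 to 13 had 4 genes detected in control, 5 in HD-homo and 1 in HD-het cells and groups 1 to 4 had 5, 8 and 3, so that the order of control and HD-homo cells at the 5′ end turned.

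**Figure D2:**
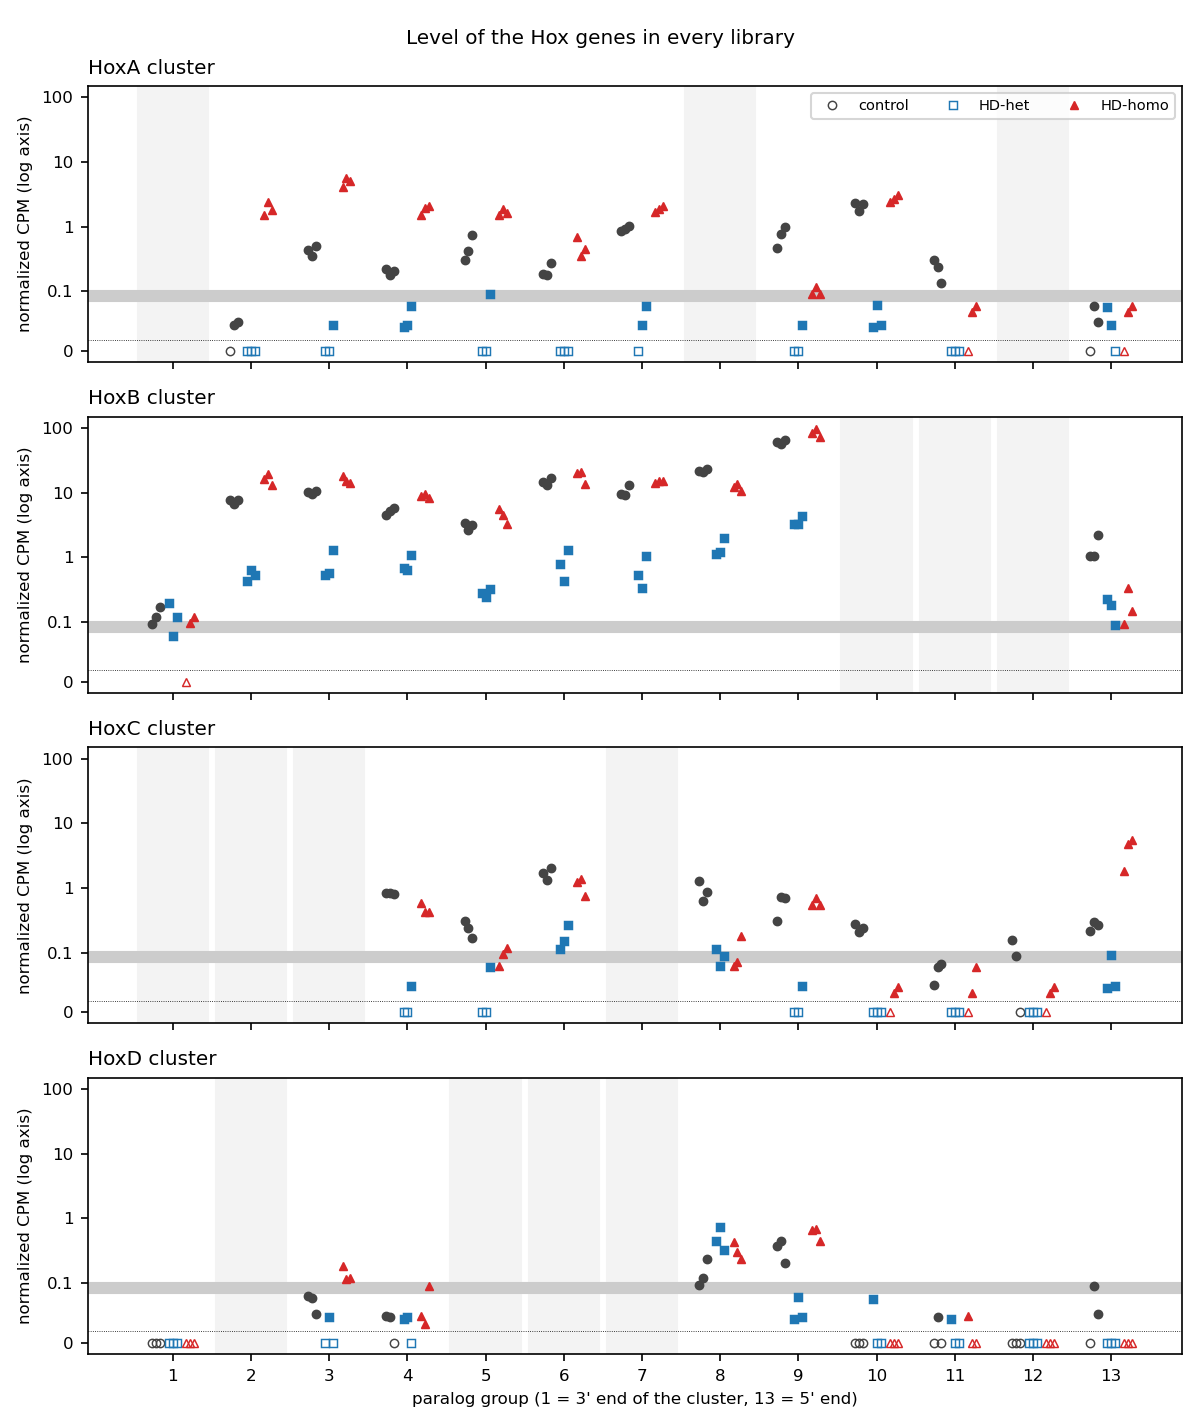
Normalized CPM of Hox genes in every library, on a log axis, by paralog group from the 3′ to the 5′ end of each cluster. Each point is 1 library, open symbols below the dotted line are libraries with no read, the dark grey band is the CPM of 3 counts over the 9 libraries, and light grey columns are groups with no gene shown in that cluster. HD-het squares lie below control and HD-homo symbols along Hoxb2 to Hoxb9, and HD-homo triangles lie above control circles along Hoxa2 to Hoxa7.

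Of the 39 genes, 25 passed the filter on low counts and were tested by edgeR's quasi-likelihood test, a two-sided test fitted to all 13508 genes that passed, with Benjamini-Hochberg adjustment. Against control, HD-het cells had 22 of these lower and 2 higher at an adjusted p under 0.05, where 31.4% of all tested genes were called lower and 33.8% higher. HD-homo cells had 15 higher and 5 lower than control, where 29.6% of all tested genes were called higher and 28.9% lower. HD-homo cells against HD-het cells gave 22 higher and 0 lower, where 36.0% of all tested genes were called higher and 35.6% lower. A gene with few reads can pass the filter only through the line in which it is high, and these counts hold for the genes that passed, not for all 39. The comparisons share libraries, so that their counts are not independent of each other.

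The median log2 fold change over the 25 genes was -3.79 for HD-het against control, 0.65 for HD-homo against control and 4.52 for HD-homo against HD-het cells, where the medians over all tested genes were 0.03, 0.01 and 0.00. With genes that had no read in HD-het cells set at the smallest change their floor allows, the medians of the comparisons with HD-het cells were -3.65 and 4.43. Requiring at least 10 counts in every library left 7 genes, Hoxb2, Hoxb3, Hoxb4 and Hoxb6 to Hoxb9. All 7 were lower than control in HD-het cells, and against control HD-homo cells had 5 higher and 1 lower. Over all genes under that filter, 3890 were called higher and 3872 lower in HD-het cells, and 3396 higher and 3354 lower in HD-homo cells. Of all calls under that filter, 50.1% were higher in HD-het and 50.3% in HD-homo cells. The number of genes tested under it is not given here, so that shares of tested genes cannot be set beside the 7.

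**Figure D3:**
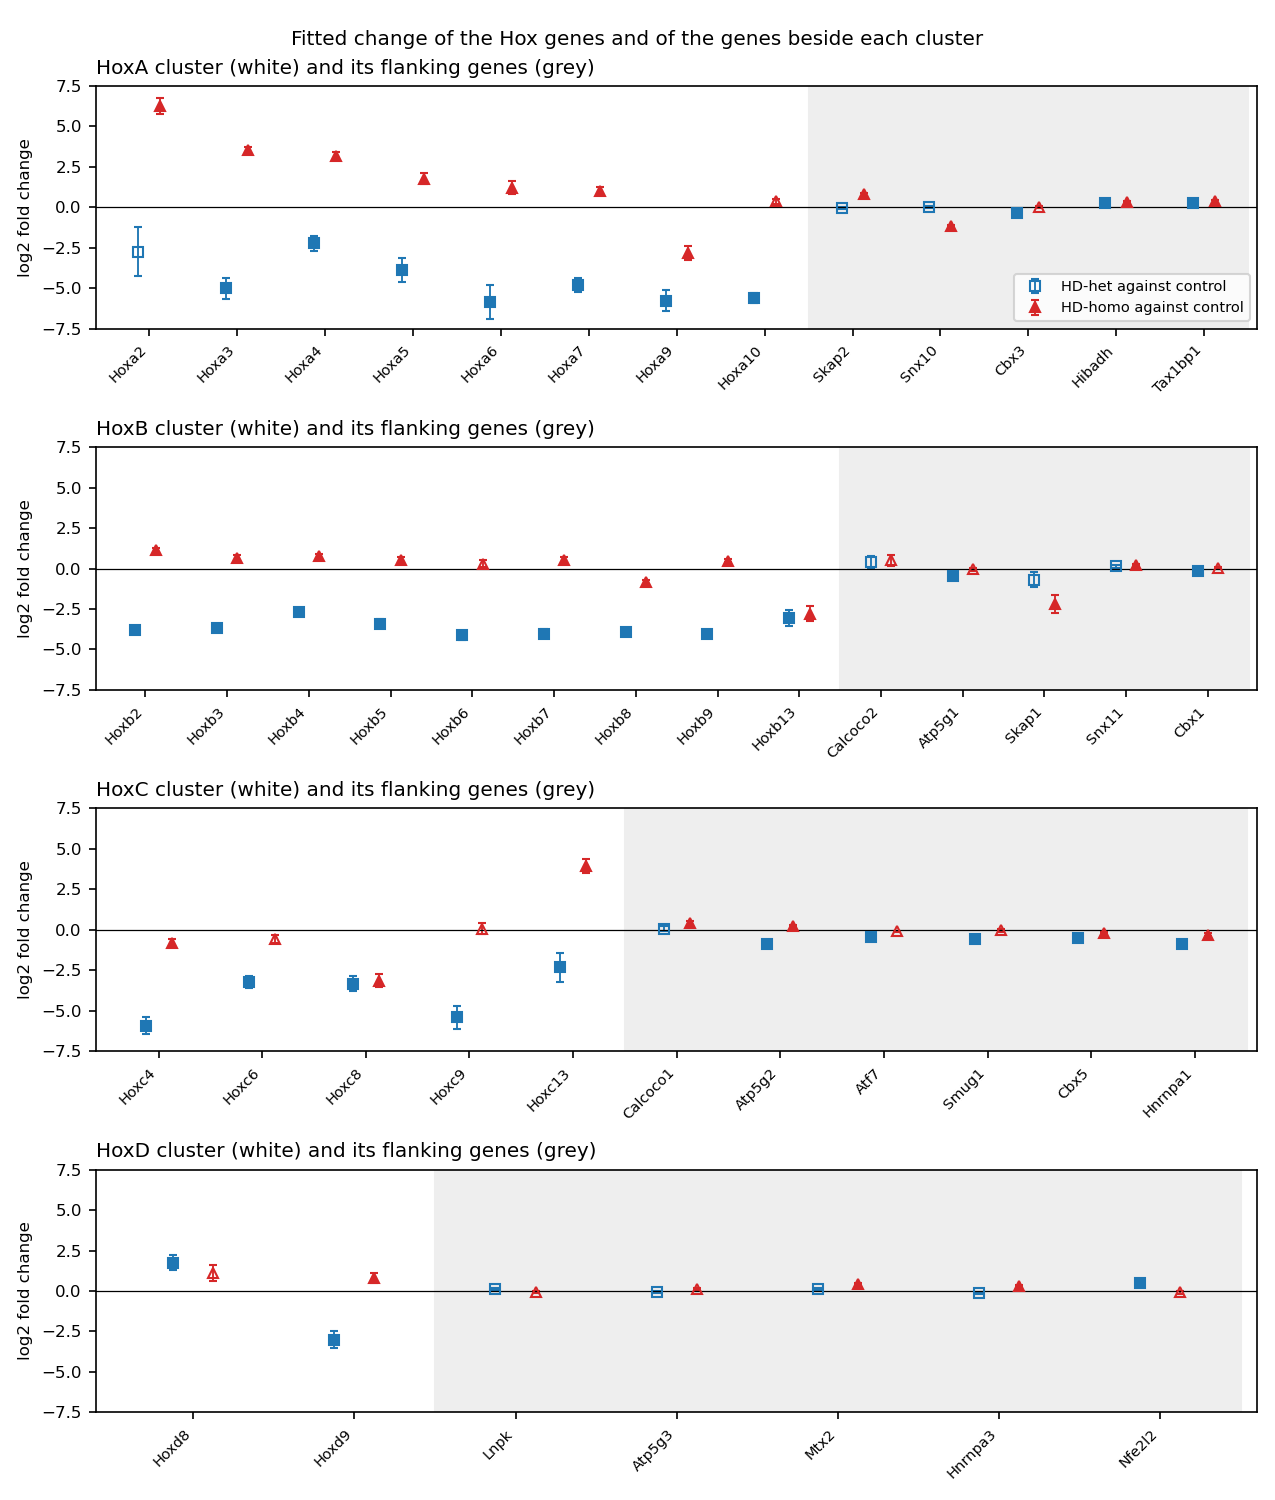
Fitted log2 fold change of HD-het (squares) and HD-homo (triangles) cells against control cells, with its SE, for Hox genes that passed the filter in 3′ to 5′ order and for the tested genes beside each cluster (grey). Filled symbols passed an adjusted p of 0.05, and HD-het values of genes with few or no reads depend on the count added before the logarithm. The HD-het values of Hoxb2 to Hoxb9 lie between -4.14 and -2.70, and flanking genes lie between -2.19 and 0.80 in both comparisons.

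The HoxB cluster lies on chromosome 11 from 96194316 to 96368256 (GRCm38), on the plus strand, with Hoxb13 at its 5′ end and Hoxb1 at its 3′ end. Its genes Hoxb2 to Hoxb9 were lower in HD-het cells than in control cells as one run, with log2 fold changes from -4.14 for Hoxb6 to -2.70 for Hoxb4, and no library of HD-het cells reached a control library in any of them. In HD-homo cells 6 genes of the run were called higher than control and Hoxb8 lower, with log2 fold changes from -0.85 for Hoxb8 to 1.13 for Hoxb2, and Hoxb6 did not pass. The promoters of Hoxb8 and Hoxb4 are shown, as no other gene of the run had a promoter sequence matched by symbol. Hoxb8 had the only decrease of the run in HD-homo cells and Hoxb4 the smallest decrease in HD-het cells. The 250 bases before the start of each gene, from RefSeq on GRCm38.p6, are given 5′ to 3′ with each CG dinucleotide in capitals, at chr11:96281655-96281904 for Hoxb8 and chr11:96318017-96318266 for Hoxb4, both on the plus strand.
Hoxb8: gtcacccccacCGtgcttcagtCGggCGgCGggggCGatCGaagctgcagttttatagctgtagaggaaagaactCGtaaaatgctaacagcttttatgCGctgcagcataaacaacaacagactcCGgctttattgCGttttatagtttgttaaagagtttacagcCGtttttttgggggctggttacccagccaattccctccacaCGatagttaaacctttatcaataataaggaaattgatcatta
Hoxb4: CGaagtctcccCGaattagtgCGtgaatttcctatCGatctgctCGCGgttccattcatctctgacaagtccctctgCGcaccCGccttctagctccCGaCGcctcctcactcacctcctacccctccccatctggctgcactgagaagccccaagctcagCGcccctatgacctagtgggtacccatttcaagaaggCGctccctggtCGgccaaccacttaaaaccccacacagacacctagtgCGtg
The Hoxb8 window holds 12 CG dinucleotides and the Hoxb4 window 14, and the median over the 24 windows of the 22 Hox genes matched by symbol was 12.5, with a range from 2 to 35, beside a median of 6 over all 32851 windows. The letters TATAAA, searched on both strands, occur in the Hoxb8 window and not in that of Hoxb4, in 4 of the 24 Hox windows and in 12.4% of all windows. CCAAT, also on both strands, occurs in the Hoxb8 window and not in that of Hoxb4, in 14 Hox windows and in 33.8% of all windows. Neither motif contains the other, and a match describes letters only.

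Hoxb9 (chromosome 11, 96271457 to 96276595), a gene of the thoracic spinal cord and ribs, had the highest level per length of all Hox genes in every line. It stood at 59.9, 57.5 and 64.3 CPM in control, 3.33, 3.32 and 4.31 CPM in HD-het and 84.2, 96.9 and 72.6 CPM in HD-homo libraries. The 3 lines did not overlap. HD-het cells were 16.6-fold lower than control cells (log2 fold change -4.05, SE 0.133, edgeR adjusted p = 2.0e-09), and HD-homo cells were 1.40-fold higher (0.48, SE 0.107, adjusted p = 0.00244).

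Hoxb8, which is known from blood cell progenitors and from the grooming behaviour of its mutant mice, was the only gene of the run with less RNA in both HD lines. Its values were 21.7, 20.8 and 23.6 CPM in control, 1.13, 1.19 and 2.01 CPM in HD-het and 12.3, 13.6 and 10.6 CPM in HD-homo libraries. No line overlapped another. Against control it fell 15.3-fold in HD-het cells (log2 fold change -3.93, SE 0.181, edgeR adjusted p = 1.9e-08) and 1.81-fold in HD-homo cells (-0.85, SE 0.144, adjusted p = 3.9e-04).

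Hoxb6 and Hoxb7, the neighbours of Hoxb8 on its 3′ side, are thoracic genes. Hoxb7 gave 9.39, 9.22 and 12.9 CPM in control, 0.536, 0.335 and 1.05 CPM in HD-het and 13.9, 15.1 and 15.4 CPM in HD-homo libraries. Hoxb6 gave 14.6, 13.2 and 16.6 CPM in control, 0.790, 0.427 and 1.29 CPM in HD-het and 20.2, 20.5 and 13.7 CPM in HD-homo libraries. Both fell in HD-het cells, 16.4-fold for Hoxb7 (edgeR adjusted p = 2.8e-07) and 17.7-fold for Hoxb6 (edgeR adjusted p = 2.8e-07). In HD-homo cells Hoxb7 rose 1.41-fold without overlap (log2 fold change 0.50, SE 0.189, edgeR adjusted p = 0.0410), a call that leaving out any 1 of control replicates 1 and 2 or the 3 HD-homo libraries ended, with adjusted p up to 0.151. HD-homo replicate 3 of Hoxb6 lay within the control range, and the difference of 0.30 (SE 0.198) did not pass (edgeR adjusted p = 0.222).

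Hoxb5, a gene with a part in lung and gut nerve development, had fewer reads than its neighbours. It was at 3.39, 2.62 and 3.18 CPM in control, 0.282, 0.244 and 0.329 CPM in HD-het and 5.61, 4.52 and 3.25 CPM in HD-homo libraries. It fell 10.7-fold in HD-het cells (log2 fold change -3.41, SE 0.279, edgeR adjusted p = 1.4e-06). In HD-homo cells it was called higher at a log2 fold change of 0.54 (SE 0.195, edgeR adjusted p = 0.0329), although HD-homo replicate 3 lay within the control range. That call was lost with DESeq2, with the 2 lines alone and without control replicate 2 or 3 or HD-homo replicate 1 or 2, with adjusted p up to 0.140.

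At the 3′ side of the run lie Hoxb4, studied for its effect on blood stem cells, Hoxb3, and Hoxb2, which patterns the hindbrain. Hoxb4 was at 4.48, 5.29 and 5.85 CPM in control, 0.677, 0.640 and 1.08 CPM in HD-het and 8.83, 9.40 and 8.20 CPM in HD-homo libraries. The values of Hoxb3 were 10.4, 9.60 and 10.6 CPM in control, 0.536, 0.579 and 1.32 CPM in HD-het and 18.3, 15.4 and 14.3 CPM in HD-homo libraries. All 3 lines were apart for both genes. Hoxb2 had 7.78, 6.69 and 7.71 CPM in control, 0.423, 0.640 and 0.539 CPM in HD-het and 16.0, 19.6 and 12.9 CPM in HD-homo libraries, again without overlap. In HD-homo cells they rose 1.69-fold for Hoxb4 (edgeR adjusted p = 0.00124), 1.57-fold for Hoxb3 (edgeR adjusted p = 0.00850) and 2.19-fold for Hoxb2 (edgeR adjusted p = 6.2e-05). In HD-het cells they fell 6.52-fold, 12.6-fold and 13.8-fold (edgeR adjusted p = 5.3e-07, 2.7e-07 and 9.6e-08). A non-coding gene, Hoxb3os, runs antisense over 52.9% of the exon bases of Hoxb3 and 27.3% of those of Hoxb2, and the strand setting of the counting is not given in the sources used here, so that reads of the 2 strands may not have been told apart.

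At the ends of the cluster, Hoxb13 fell in both HD lines and Hoxb1 could not be tested. Hoxb13, a gene of the tail and the prostate that lies apart from the other HoxB genes, was at 1.03, 1.04 and 2.20 CPM in control, 0.226, 0.183 and 0.0899 CPM in HD-het and 0.0920, 0.332 and 0.149 CPM in HD-homo libraries. It was 8.56-fold below control in HD-het (log2 fold change -3.05, SE 0.478, edgeR adjusted p = 1.8e-04) and 7.45-fold below control in HD-homo cells (-2.79, SE 0.455, adjusted p = 3.0e-04). Without HD-homo replicate 2 the latter log2 fold change was -3.50. The HD lines overlapped each other (log2 fold change 0.26 for HD-homo against HD-het, SE 0.644, edgeR adjusted p = 0.731). Hoxb1, which specifies a hindbrain segment, had between 0 and 7 counts per library and did not pass the filter.

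**Figure D4:**
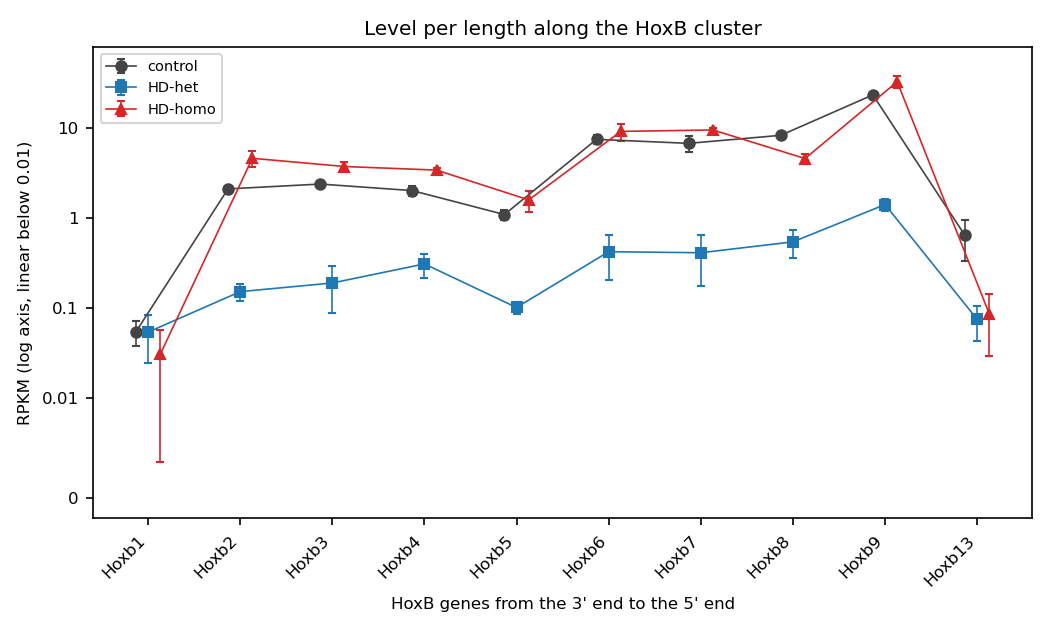
Mean RPKM of the 10 HoxB genes from the 3′ end to the 5′ end, with the SD of 3 libraries, on an axis that is logarithmic above 0.01 and linear below it. Hoxb9 is the highest gene in each line, at 23.5 RPKM in control, 1.42 in HD-het and 32.9 in HD-homo cells, and both end genes, Hoxb1 and Hoxb13, lie below their neighbours.

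The HoxA cluster lies on chromosome 6 (GRCm38), on the minus strand, with Hoxa13 at the 5′ end. Its genes Hoxa2 to Hoxa7 were all higher than control in HD-homo cells, by log2 fold changes from 1.01 for Hoxa7 to 6.28 for Hoxa2. In order along the cluster, the log2 fold changes were 6.28 for Hoxa2, 3.52 for Hoxa3, 3.20 for Hoxa4, 1.77 for Hoxa5, 1.22 for Hoxa6 and 1.01 for Hoxa7. Hoxa10 did not pass, and Hoxa9 fell. HD-het cells had Hoxa2 to Hoxa13 at or under the floor. The promoter window of Hoxa2 is shown because it had the highest fold change of any Hox gene in HD-homo cells. Its 250 bases before the start, from RefSeq on GRCm38.p6, lie at chr6:52164832-52165081 on the minus strand and are printed 5′ to 3′ with CG in capitals.
Hoxa2: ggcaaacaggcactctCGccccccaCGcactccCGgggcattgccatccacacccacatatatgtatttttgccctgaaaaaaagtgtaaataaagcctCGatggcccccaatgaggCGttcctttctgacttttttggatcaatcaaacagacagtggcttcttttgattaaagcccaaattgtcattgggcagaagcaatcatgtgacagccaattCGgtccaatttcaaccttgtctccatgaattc
This window holds 6 CG dinucleotides, the median of all windows and below that of the Hox windows, and it has CCAAT but not TATAAA.

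Hoxa2 (chromosome 6, 52162417 to 52164831), the gene that sets the identity of the second pharyngeal arch and of hindbrain segments, was read in HD-homo cells almost alone. It had 0, 1 and 1 counts in control, 0, 0 and 0 in HD-het and 50, 101 and 60 in HD-homo libraries, which is 1.53, 2.39 and 1.79 CPM in the last. The ratio of HD-homo to control cells was 89.9, with a 95% counting interval from 25.4 to 771 (edgeR adjusted p = 3.7e-06), and HD-homo cells were at least 21.5-fold above the floor of HD-het cells, at 3 counts per library. Some 15% of its exon bases are shared with an overlapping gene model on the same strand.

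Hoxa3, needed for the thymus and parathyroid, Hoxa4 and Hoxa5, which acts in the lung and neck, were detected in control cells, absent or nearly so from HD-het cells and highest in HD-homo cells. Hoxa3 gave 0.436, 0.357 and 0.507 CPM in control, 0, 0 and 0.0300 CPM in HD-het and 4.14, 5.68 and 5.10 CPM in HD-homo libraries. The values of Hoxa4 were 0.218, 0.178 and 0.203 CPM in control, 0.0282, 0.0305 and 0.0599 CPM in HD-het and 1.53, 1.94 and 2.09 CPM in HD-homo libraries. Hoxa5 was at 0.311, 0.416 and 0.744 CPM in control, 0, 0 and 0.0899 CPM in HD-het and 1.5, 1.87 and 1.61 CPM in HD-homo libraries. None of them had a library of one line within the range of another. Against control, HD-homo cells rose 11.5-fold for Hoxa3 (edgeR adjusted p = 2.1e-07), 9.29-fold for Hoxa4 (edgeR adjusted p = 7.7e-07) and 3.39-fold for Hoxa5 (edgeR adjusted p = 0.00121). HD-het cells held 1 read of Hoxa3 in all, in replicate 3, so that control cells were higher by a ratio of 43.4 with a 95% counting interval from 7.42 to 1768. The ratio was 5.05 (1.68 to 20.5) for Hoxa4 and 16.4 (5.25 to 82.2) for Hoxa5, whose 3 HD-het reads were also all in replicate 3. Gene models on the opposite strand cover 25.4% of the exon bases of Hoxa3 and 16% of those of Hoxa4.

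Hoxa7 and Hoxa10 were detected in control and HD-homo cells and at or under the floor in HD-het cells. Hoxa7 was at 0.871, 0.922 and 1.01 CPM in control, 0, 0.0305 and 0.0599 CPM in HD-het and 1.69, 1.87 and 2.12 CPM in HD-homo libraries. It rose 2.02-fold in HD-homo cells (log2 fold change 1.01, SE 0.219, edgeR adjusted p = 0.00209), and control cells exceeded HD-het cells by a ratio of 31.1 (95% counting interval 10.5 to 156). Without HD-het replicate 3 the fitted log2 fold change of the latter moved from -4.82 to -5.68. Hoxa10, which acts in the uterus and in lumbar patterning, stood at 2.30, 1.78 and 2.27 CPM in control, 0.0282, 0.0610 and 0.0300 CPM in HD-het and 2.39, 2.65 and 3.10 CPM in HD-homo libraries. Its control and HD-homo libraries did not overlap, but the log2 fold change of 0.36 (SE 0.170) did not pass (edgeR adjusted p = 0.0901). Control cells exceeded HD-het cells in Hoxa10 by a ratio of 53.3 (95% counting interval 20.6 to 199).

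Of the remaining HoxA genes, Hoxa6 had 6 to 8 counts per library in control, none in HD-het and 15 to 23 in HD-homo cells. Control cells were at least 2.39-fold above the floor of HD-het cells, at 3 counts per library. Hoxa6 was called higher in HD-homo cells (edgeR adjusted p = 0.0215), a call lost with DESeq2 and without control replicate 1 or 2 or HD-homo replicate 1, with adjusted p up to 0.1. Hoxa9, known as a driver of leukaemia together with Meis1, went the other way in HD-homo cells from Hoxa7, its neighbour on the 3′ side. It had 15 to 29 counts per library in control, 0 to 1 in HD-het and 3 to 5 in HD-homo cells. It fell 7.40-fold in HD-homo cells (log2 fold change -2.82, SE 0.419, edgeR adjusted p = 1.5e-04), and control cells exceeded HD-het cells by a ratio of 74.1 (95% counting interval 13 to 2989), with the 1 HD-het read in replicate 3. Hoxa11, a gene of the forearm and uterus that did not pass the filter, had 4 to 10 counts in control and at most 2 in any HD library. Hoxa13, a gene of the hand and foot, had at most 2 counts in any library.

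The HoxC cluster lies on chromosome 15 from 102921103 to 103036852 (GRCm38), on the plus strand. Its genes were the most divided in HD-homo cells, with 1 called higher, 2 called lower and 2 not called among the 5 that passed the filter, while all 5 were called lower in HD-het cells. The gene that rose was Hoxc13 (chromosome 15, 102921103 to 102928814), at the 5′ end, which acts in hair and nail formation. Hoxc13 had 7, 10 and 8 counts in control, 1, 3 and 1 in HD-het and 60, 202 and 185 in HD-homo libraries, which is 0.218, 0.297 and 0.270 CPM, 0.0282, 0.0915 and 0.0300 CPM, and 1.84, 4.78 and 5.52 CPM. HD-homo replicate 1 lay well below the other 2 HD-homo libraries but far above all control libraries. It rose 15.5-fold against control (log2 fold change 3.94, SE 0.442, edgeR adjusted p = 1.7e-05). The ratio of control to HD-het cells was 5.25 (95% counting interval 2.00 to 17.8, edgeR adjusted p = 0.0416), and that call was lost without any 1 of the control libraries or HD-het replicates 1 and 3, with adjusted p up to 0.114. Without HD-het replicate 2 its fitted log2 fold change moved from -2.33 to -3.02. The neighbours of Hoxc13, Hoxc12 and Hoxc11, had at most 1 and 2 counts per library in HD-homo cells.

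Hoxc6, a gene of the thoracic region and forelimb level, was the only HoxC gene detected in all 3 lines. It was at 1.71, 1.34 and 2.03 CPM in control, 0.113, 0.152 and 0.270 CPM in HD-het and 1.23, 1.37 and 0.746 CPM in HD-homo libraries. HD-het cells were 9.5-fold lower than control cells without overlap (log2 fold change -3.22, SE 0.359, edgeR adjusted p = 1.4e-05). HD-homo and control libraries overlapped, with a log2 fold change of -0.58 (SE 0.265, edgeR adjusted p = 0.0790). It passed without HD-homo replicate 2, at an adjusted p of 0.0448.

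Hoxc8 and Hoxc9, which shape motor neurons of the brachial and thoracic spinal cord, parted in HD-homo cells. Hoxc8 had 21 to 41 counts per library in control, 2 to 4 in HD-het and 2 to 6 in HD-homo cells, and was lower in both HD lines, 10.5-fold in HD-het (95% counting interval 5.25 to 23.5, edgeR adjusted p = 5.1e-05) and 8.93-fold in HD-homo cells (4.84 to 18.9, edgeR adjusted p = 7.0e-05). The HD lines overlapped for Hoxc8 (edgeR adjusted p = 0.802). Hoxc9 had 10 to 24 counts in control, 0 to 1 in HD-het and 18 to 30 in HD-homo cells, with control and HD-homo libraries overlapping (log2 fold change 0.07, SE 0.335, edgeR adjusted p = 0.876). Hoxc4 had 24 to 28 counts in control, 0 to 1 in HD-het and 14 to 19 in HD-homo cells. The single HD-het reads of Hoxc9 and Hoxc4 were both in replicate 3, and control cells exceeded HD-het cells by ratios of 57.9 (95% counting interval 10.1 to 2358) and 82.9 (14.7 to 3368). Hoxc4 was called lower in HD-homo cells at a log2 fold change of -0.81 (SE 0.260, edgeR adjusted p = 0.0202), and this was lost with DESeq2 and without control replicate 1 or 2 or HD-homo replicate 2, with adjusted p up to 0.113.

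Hoxc5, Hoxc10, Hoxc11 and Hoxc12 did not pass the filter. Hoxc10, a gene of the lumbar cord, had 7 to 9 counts per library in control, none in HD-het and at most 1 in HD-homo cells, and Hoxc5 had 5 to 10, 0 to 2 and 2 to 4. Their exons overlap on the same strand over 8.7% of Hoxc10 and 5.37% of Hoxc5, so that a part of their reads may have been split between them. Hoxc11 had at most 2 counts and Hoxc12 at most 5 in any library.

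The HoxD cluster lies on chromosome 2 from 74668310 to 74765142 (GRCm38), on the plus strand, and had the fewest reads of the clusters in control and HD-homo cells. Only Hoxd8 and Hoxd9 passed the filter, and no HoxD gene reached a mean of 1 CPM in any line. Hoxd8 had 3, 4 and 7 counts in control, 16, 24 and 11 in HD-het and 14, 13 and 8 in HD-homo libraries. It rose in HD-het cells by 3.37-fold without overlap (log2 fold change 1.75, SE 0.447, edgeR adjusted p = 0.00502). In HD-homo cells it did not overlap control either, but the log2 fold change of 1.12 (SE 0.478) did not pass (edgeR adjusted p = 0.0648), and the HD lines overlapped each other. Hoxd9 had 6 to 15 counts in control, 1 to 2 in HD-het and 15 to 29 in HD-homo cells. Its increase in HD-homo cells of 0.81 on the log2 scale (SE 0.314, edgeR adjusted p = 0.0449) was lost under 7 of the alternatives, with adjusted p up to 0.199, and control cells exceeded HD-het cells by a ratio of 8.58 (95% counting interval 3.13 to 34.2).

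The remaining HoxD genes were at or near the floor in all lines. Hoxd3 was detected in HD-homo cells with 6, 5 and 4 counts, beside at most 2 in any other library, but 62.3% of its exon bases are shared on the same strand with Hoxd4 and another gene model, so that its reads are uncertain. Hoxd4 had at most 3 counts in any library. Hoxd10, Hoxd11 and Hoxd13, which pattern the limbs, had at most 2, 1 and 3 counts in a library, and Hoxd1 and Hoxd12 had no read in the 9 libraries. A count of 0 allows up to 3 counts, or between 0.0710 and 0.101 CPM, and absence of these mRNAs cannot be taken from it.

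Per length, the order of the genes along the scale was led by HoxB in each line. In control cells Hoxb9 led at 23.5 ± 1.33 RPKM (SD, n = 3), followed by Hoxb8 at 8.35 ± 0.540, Hoxb6 at 7.53 ± 0.860 and Hoxb7 at 6.80 ± 1.34, each overlapping the next, and then by Hoxb3 at 2.40 ± 0.123. The first gene outside HoxB was Hoxc6, the ninth in the order, at 0.703 ± 0.144 RPKM, and it overlapped Hoxa10. In HD-homo cells Hoxb9 stood at 32.9 ± 4.72, Hoxb7 at 9.58 ± 0.513 and Hoxb6 at 9.23 ± 1.94 RPKM, the last 2 overlapping, and Hoxb8 had moved behind Hoxb2, which it overlapped at 4.61 ± 0.571 against 4.64 ± 0.953 RPKM. Hoxc13, at 1.64 ± 0.791 RPKM, was the first gene outside HoxB in HD-homo cells, but it overlapped Hoxb5, the next in the order, and with the length of the longest transcript Hoxa3 came before it, at 1.92 ± 0.301 RPKM, also with overlap. HD-het cells kept Hoxb9 first, at 1.42 ± 0.222 RPKM, and Hoxb8 next, at 0.547 ± 0.186, but Hoxd8 came seventh, at 0.184 ± 0.0752 RPKM, and overlapped its neighbours in the order.

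The share of the summed RPKM that fell in each stretch of the clusters also differed. Groups 1 to 4 held 12.2 ± 0.332% in control, 21.1 ± 2.29% in HD-het and 20 ± 0.442% in HD-homo cells (SD, n = 3), and no control library reached the range of either HD line. Groups 5 to 8 held 43.8 ± 1.44%, 41.4 ± 4.83% and 34.9 ± 1.31% in the same order, with control and HD-homo libraries apart. Groups 9 to 13 held 44.0 ± 1.11%, 37.5 ± 4.82% and 45.1 ± 1.43%, where control and HD-homo libraries overlapped. With the length of the longest transcript in place of all exon bases, the share of groups 1 to 4 was 13.5 ± 0.411% in control, 22 ± 2.31% in HD-het and 22.1 ± 0.423% in HD-homo cells.

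The genes on either side of the clusters were examined as neighbours of the Hox genes. Of 24 flanking genes, the 3 nearest on each side of every cluster, 21 were tested. HD-het cells had 3 higher and 8 lower than control and HD-homo cells 8 higher and 4 lower. The shares over all tested genes were 33.8% higher and 31.4% lower in HD-het and 29.6% and 28.9% in HD-homo cells. HD-homo cells against HD-het cells gave 12 higher and 3 lower, where 36.0% of all tested genes were called higher and 35.6% lower. Skap2, an adaptor protein gene beyond the 3′ end of HoxA, was at 20.5 ± 1.14 CPM in control, 19.8 ± 1.52 in HD-het and 35.7 ± 2.65 in HD-homo cells (SD, n = 3). It rose in HD-homo cells by 0.80 on the log2 scale (SE 0.0835, edgeR adjusted p = 9.1e-06), and the neighbour beyond it, Snx10, fell (log2 fold change -1.15, edgeR adjusted p = 1.3e-07). Skap1, 96.3 kb from the 3′ end of HoxB, was low in all lines and fell in HD-homo cells (log2 fold change -2.19, SE 0.540, edgeR adjusted p = 0.00484). Beside HoxC, 5 of the 6 tested genes were called lower in HD-het cells and 0 higher. HD-homo cells against HD-het cells had 5 of these 6 genes higher and 0 lower. Among the genes beside HoxC, Atp5g2, a gene of mitochondrial ATP synthase, fell in HD-het cells (log2 fold change -0.91, edgeR adjusted p = 2.5e-07). In HD-homo cells Atp5g2 was higher than control (0.21, edgeR adjusted p = 0.00996). Cbx5, a heterochromatin protein gene, fell in both HD lines (-0.53 in HD-het, edgeR adjusted p = 2.1e-05, and -0.22 in HD-homo cells, edgeR adjusted p = 0.00907). Nfe2l2, beside HoxD, rose in HD-het cells (log2 fold change 0.51, edgeR adjusted p = 6.4e-05). Evx1 and Evx2, the homeobox genes next to the 5′ ends of HoxA and HoxD, had no read in any library.

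Hox proteins bind DNA with cofactors of the TALE homeobox family, and all 9 of these were expressed and tested. HD-het cells had 5 higher and 1 lower than control, where 33.8% of all tested genes were called higher and 31.4% lower. HD-homo cells had 2 higher and 2 lower, where the shares were 29.6% and 28.9%. Meis2 had 49.2 ± 3.40 CPM in control, 87.9 ± 1.51 in HD-het and 21.4 ± 2.80 in HD-homo cells (SD, n = 3), a decrease in HD-homo cells (log2 fold change -1.20, edgeR adjusted p = 6.3e-07) and an increase in HD-het cells (0.84, edgeR adjusted p = 8.3e-06). Pknox2 rose in both HD lines, by 2.28 on the log2 scale in HD-het (edgeR adjusted p = 2.1e-04) and 1.24 in HD-homo cells (edgeR adjusted p = 0.0182), and Pbx2 fell in both, by 0.30 and 0.49 (edgeR adjusted p = 0.00502 and 2.3e-04). The Pknox2 call in HD-homo cells was lost without control replicate 1 or 3 or HD-homo replicate 1 or 2, with adjusted p up to 0.0668.

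Polycomb proteins keep Hox clusters silent and Trithorax proteins keep them active. Of 22 Polycomb genes, 7 were higher and 7 lower in HD-het cells and 7 higher and 4 lower in HD-homo cells, close to or below the shares over all tested genes. Their median log2 fold changes were -0.08 and -0.04. The called changes included Cbx7, which fell in HD-het (log2 fold change -1.17, edgeR adjusted p = 6.5e-06) and HD-homo cells (-0.92, edgeR adjusted p = 4.2e-05), Cbx2, which fell in HD-homo cells (-1.02, edgeR adjusted p = 5.0e-05), Phc1, which rose in HD-het cells (0.76, edgeR adjusted p = 1.3e-06), and Aebp2, which rose in HD-homo cells (0.65, edgeR adjusted p = 1.8e-06). Of 12 Trithorax genes, 8 were lower and 1 higher in HD-het cells and 7 lower and 0 higher in HD-homo cells. Over all tested genes, 31.4% were called lower and 33.8% higher in HD-het cells, and 28.9% lower and 29.6% higher in HD-homo cells. Dpy30 fell by 0.86 on the log2 scale in HD-het cells (edgeR adjusted p = 8.7e-06), and Kdm6a, which removes the Polycomb mark, by 0.92 in HD-homo cells (edgeR adjusted p = 6.2e-06). Its relative Kdm6b was the 1 that rose in HD-het cells, by 0.42 (edgeR adjusted p = 0.00133), and Psip1 fell by 0.21 in both HD lines (edgeR adjusted p = 0.0274 in HD-het and 0.0308 in HD-homo cells). Both Psip1 calls were lost without control replicate 2 or 3, that in HD-het cells also without HD-het replicate 1 or 3 (adjusted p up to 0.0996) and that in HD-homo cells also without HD-homo replicate 1 or 3 or with library totals alone (adjusted p up to 0.111).

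Among 20 genes of the Cdx and retinoic acid systems, which switch Hox genes on in the embryo, 13 were tested. HD-het cells had 4 higher and 3 lower than control, where 33.8% of all tested genes were called higher and 31.4% lower. HD-homo cells had 4 higher and 5 lower, where the shares were 29.6% and 28.9%. Cdx2, a caudal factor that activates Hox genes of the trunk, was at 21.1, 20.8 and 23.9 CPM in control, 1.38, 1.22 and 0.300 CPM in HD-het and 0.0307, 0.0237 and 0.0596 CPM in HD-homo libraries. The 3 lines did not overlap, and the gene fell in HD-het cells (log2 fold change -4.49, SE 0.290, edgeR adjusted p = 2.4e-07) and in HD-homo cells, where 1 to 2 counts per library were left (edgeR adjusted p = 2.3e-08). Cdx2 was lowest in HD-homo cells, where the Hox sum was highest. Crabp1, a retinoic acid binding protein, had 180 ± 9.03 CPM in control, 44.1 ± 5.51 in HD-het and 0.325 ± 0.0377 in HD-homo cells (SD, n = 3). Aldh1a1, a retinoic acid synthesis enzyme, rose in HD-het cells from 1 to 3 counts per library to between 20 and 105 (edgeR adjusted p = 1.4e-04). Egr2, the hindbrain factor that acts on Hoxa2 and Hoxb2, rose in HD-het (log2 fold change 1.95, edgeR adjusted p = 6.6e-05) and HD-homo cells (1.56, edgeR adjusted p = 4.2e-04). Of its targets, Hoxa2 and Hoxb2 rose in the HD-homo line, whereas Hoxb2 fell and Hoxa2 had no read in the HD-het line. The part of these genes in the Hox levels was not tested.

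Genes that mark the forebrain were present beside the Hox genes. Of 21 forebrain factors, 13 were tested, with 8 higher and 1 lower in HD-het and 5 higher and 6 lower in HD-homo cells. The shares over all tested genes were 33.8% higher and 31.4% lower in HD-het and 29.6% and 28.9% in HD-homo cells. The sum of the 21 factors was between 432 and 441 CPM in control, 567 and 575 in HD-het and 349 and 401 in HD-homo cells. Otx2, Emx1 and Isl1 had no read. Pax6 was at 32.1 ± 0.605 CPM in control, 48.2 ± 1.23 in HD-het and 0.132 ± 0.0327 in HD-homo cells (SD, n = 3) and fell in HD-homo cells (log2 fold change -7.91, edgeR adjusted p = 5.0e-12). Dlx2 was at 16.2 ± 0.635, 4.66 ± 1.00 and 31.8 ± 8.99 CPM, down in HD-het (log2 fold change -1.80, edgeR adjusted p = 2.2e-05) and up in HD-homo cells (0.98, edgeR adjusted p = 0.00103), the same directions as the Hox sum. Dlx2 was the 1 factor called lower in HD-het cells. Pax6 and the sum of the 21 factors went the opposite way, above control in HD-het and below control in HD-homo cells. The part of these factors in the Hox levels was not tested. Gsx1 rose in HD-het cells (log2 fold change 2.49, edgeR adjusted p = 0.00505) and had no read in HD-homo cells, and Foxp2 rose in HD-homo cells (2.15, edgeR adjusted p = 6.9e-04). Of the 11 striatal neuron markers, only 4 were tested, with 1 higher and 2 lower in HD-het and 1 higher and 0 lower in HD-homo cells. The shares over all tested genes are those given above for the forebrain factors. The called markers were Penk, up in HD-homo (0.90, edgeR adjusted p = 0.0287) and down in HD-het cells (-1.44, edgeR adjusted p = 0.00672), Rgs9, down in HD-het cells (-2.16, edgeR adjusted p = 0.0103), and Pde10a, up in HD-het cells (1.27, edgeR adjusted p = 1.4e-04). The Penk call in HD-homo cells was lost without control replicate 1 or 2 or HD-homo replicate 3, with adjusted p up to 0.109 and a log2 fold change of 0.55 without the last.

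Mesenchyme and fibroblast markers, of cells in which Hox genes are active in the trunk, moved between the lines as well. The 18 genes summed to between 11924 and 13563 CPM in control, 21968 and 23356 in HD-het and 16015 and 17461 in HD-homo cells. Of the 13 tested, HD-het cells had 7 higher and 5 lower, where 33.8% of all tested genes were called higher and 31.4% lower. HD-homo cells had 10 higher and 1 lower, where the shares were 29.6% and 28.9%. Vim fell in both HD lines (log2 fold change -0.24 in HD-het, edgeR adjusted p = 0.0161, and -0.34 in HD-homo cells, edgeR adjusted p = 0.00259), and the HD-het call was lost without control replicate 3 or HD-het replicate 1 or 2, with adjusted p up to 0.0627. Col1a2 was at 73.4 ± 6.19 CPM in control, 3.15 ± 0.424 in HD-het and 1494 ± 75.0 in HD-homo cells (SD, n = 3), with the lines in the same order as the Hox sum. Dcn was likewise called lower in HD-het and higher in HD-homo cells (log2 fold changes -1.30 and 2.40, edgeR adjusted p = 0.00239 and 7.9e-06). So was Prrx1 (-0.57 and 0.21, edgeR adjusted p = 5.2e-05 and 0.0303). The 7 markers called higher in HD-het cells did not have this order. Col1a1 and Col3a1 were instead highest in HD-het cells, at 7097 ± 734 and 997 ± 154 CPM. Control cells held 2465 ± 382 and 491 ± 105 CPM of them, and HD-homo cells 4234 ± 226 and 551 ± 35.5 CPM. Pdgfra rose to 307 ± 5.22 CPM in HD-homo cells from 5.21 ± 0.880 in control (log2 fold change 5.87, edgeR adjusted p = 2.1e-11), Pdgfrb rose in HD-het cells (1.97, edgeR adjusted p = 5.7e-08), and Fn1 rose in both (1.19 and 0.42, edgeR adjusted p = 6.2e-06 and 0.00963). Lum, Tbx4 and Pitx1 had no read in control cells. The part of these markers in the Hox levels was not tested.

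The non-coding genes of the clusters could not be measured from this table. Hotair, Hottip, Hotairm1, Hoxb3os and the Mir10 and Mir196 genes were among 21 listed Hox cluster non-coding genes that had no read in any library. Only 48 of 10169 lncRNA genes (0.472%) and 0 of 1184 miRNA genes had a read in the table, beside 81.1% of protein-coding genes, so that these zeros carry no information on the Hox clusters.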

How the data were processed

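RNA-seq of 9 libraries, 3 from each of 3 mouse striatal cell lines, was analysed from the whole-number counts per gene symbol that the authors deposited without normalization. Poly(A) RNA was made into directional libraries, and the submitters' processing notes name cutadapt, Bowtie 1.1.2, RSEM 1.3.0, DESeq2 and the builds GRCm38.p5 and mm10. How reads of overlapping genes or strands were assigned is not given in the sources used here. Of 36410 genes, 2 symbols are listed again and 26 rows show a date where a symbol should stand. None is a Hox gene.

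Genes were filtered by filterByExpr (minimum count 10, 3 lines as groups), which left 13508, scaled by TMM and fitted with edgeR 4.0.16 in R 4.3.3 with 1 mean per line over all 9 libraries. The quasi-likelihood test was adjusted by Benjamini-Hochberg within each of the 3 comparisons, with a threshold of 0.05. The sources do not say how DESeq2 was used on these libraries, and its test was run as an alternative. RPKM used the exon union lengths of GENCODE on GRCm38. Folds are ratios of mean normalized CPM, with exact conditional binomial intervals of 95% on summed counts where a line had few reads. The script was tested on simulated data. The Hox genes and all gene lists were chosen with earlier results of these data known. Some genes of these lists are not reported here. The other members are named, those with a mean of 1 CPM or more in a line with every library's value, and from other lists the gene of highest CPM in any line and the largest called changes. Snx10, Col1a1, Col3a1, Dcn, Prrx1, the unread genes and the markers at the floor were named after their values were seen.

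Alternatives were DESeq2 1.42.0, its size factors, library totals, other filters and thresholds, a prior count of 2, the 2 lines alone, the replicate number as a block and leaving out each library. Replicate pairs of a line differed by 2.23 to 40.3 times the variance of counting.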

Additional observations from a re-analysis of the deposited data

How the results depend on the processing

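The counts of Hox genes called were within 1.5 times those given under most alternatives. With at least 10 counts in every library they were 6 for HD-homo against control, 7 for HD-het against control and 7 for HD-homo against HD-het, since only 7 Hox genes could be tested. Asking also for a log2 fold change of 1 or more left 12 Hox genes called for HD-homo against control. The 24 for HD-het against control and the 22 for HD-homo against HD-het all stayed. Over all genes, 2574 calls were left for HD-homo against control, 2490 for HD-het against control and 3285 for HD-homo against HD-het. Of those for HD-het against control, 65.1% were higher in place of 51.8%. Leaving out 1 library gave 16 to 20 Hox genes called for HD-homo against control, 23 to 24 for HD-het against control and 21 to 22 for HD-homo against HD-het, and DESeq2 gave 16, 24 and 22. Over all genes, leaving out 1 library gave 6842 to 7670, 7865 to 8574 and 8977 to 9592 calls.

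More than 10 counts in every library left 16 genes detected in control, 8 in HD-het and 21 in HD-homo cells, and at least 1 count left 29, 18 and 28. Leaving out 1 library gave 25 to 27 detected in control, 11 to 12 in HD-het and 23 to 26 in HD-homo cells. With longest transcripts, groups 1 to 4 held 13.5% of the summed RPKM in control and 22.1% in HD-homo cells, and groups 9 to 13 held 42.0% and 42.5%. With DESeq2 size factors or library totals, the summed CPM of each cluster moved by less than its SD. Leaving out 1 of 3 libraries cannot move a mean by that much, so that it was no check of these sums.

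Direction turned only in log2 fold changes that had not passed, when 1 library was left out. These ranged from -0.23 to 0.26 for Hoxc9 and -0.30 to 0.32 for Rgs9 in HD-homo against control, from -0.09 to 0.01 for Skap2 in HD-het against control, and from -0.45 to 0.56 for Hoxb13 and -0.39 to 0.44 for Hoxc8 in HD-homo against HD-het. Without HD-het replicate 3, Hoxa3, Hoxa5, Hoxa9, Hoxc4 and Hoxc9 had no read in HD-het cells, and their fitted decreases grew. The call of Hoxa9 in HD-homo against HD-het was lost without HD-het replicate 1 or 2 (edgeR adjusted p up to 0.0576). Without control replicate 3 the increase of Hoxd8 in HD-homo cells passed (edgeR adjusted p = 0.0383), as did that of Hoxb6 without HD-homo replicate 3 (0.0422).

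The labels number the replicates alike in each line without saying what a number shares, and the correlation of same-numbered deviations from the line means was under 0.1 for at least 1 pair in every comparison, from -0.00532 to 0.145. With the replicate number as a block, 20, 24 and 22 Hox genes were called, and 8372, 9160 and 9938 genes in all.

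These lines rest on 3 libraries each, and genes under about 0.1 CPM are limited by counting.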
